A study of Mus musculus with 10 samples.

Results

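The immunoglobulin V segments are the short gene pieces from which B cells build the variable part of antibodies. The 345 segments of the heavy-chain and kappa light-chain loci were followed in ATAC-seq peak lists of neural stem cells with and without Smchd1. Members were all genes of a RefSeq table (assembly GRCm38.p6) whose symbol starts with Ighv, 183 segments on chromosome 12, or Igkv, 162 segments on chromosome 6. A peak was counted, once, when its summit lay in a segment or within 5 kb of one. By this rule the heavy locus had 39 of the 130103 peaks of control (fl/fl) females and 41 of the 104316 of deleted (del/del) females. Males had 33 of 101322 and 32 of 88159. The kappa locus had 14, 14, 11 and 10 in the same order. The RefSeq table lists 49943 genes in all.

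ATAC-seq marks open chromatin with a transposase that inserts sequencing adapters into accessible DNA. The cells were C57BL/6 neural stem cell lines, grown from E14.5 embryos that carried floxed Smchd1. Female lines gave 3 libraries of Smchd1 del/del and 3 of Smchd1 fl/fl cells, and male lines gave 2 of each. The protocol given with every sample, the fl/fl controls included, is transduction with MSCV-Cre-puro, a retrovirus that carries Cre and a puromycin marker, puromycin from 24 h and harvest at 7 days. What the control cells received is therefore not settled by the labels. The description field of the male samples says female, against their titles and sex field, which were followed. The authors called 1 peak list on the pooled libraries of each group, so the values below have no replicate error and the differences have no test. Whether more cells with an open site or a more open site in each cell lies behind a stronger peak cannot be told apart in such bulk lists.

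In B-lineage cells a V segment is joined to D and J segments, or to a J segment alone in the kappa locus, by the RAG recombinase. RAG cuts at a recombination signal sequence that lies directly beside each segment, in the heavy locus on the side that faces the D segments. Many heavy V segments close to the D segments are known to have the insulator protein CTCF bound beside this signal in B-cell precursors. Smchd1 is a chromatin protein known for silencing on the inactive X chromosome and in several clustered gene families. The loci are not rearranged in neural cells, and neither CTCF binding nor transcription was measured here.

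The cells had the peaks of neural rather than B-lineage cells. Of 15 neural stem cell genes, 13 had a peak within 1 kb of a gene end in each list, and Pax6 and Gfap had none. Of 15 B-cell genes, such a peak stood at 2 and 1 in the control and deleted female lists and at 3 and 4 in the male ones. Ebf1, a transcription factor gene of early B cells, had 3 peaks in every list. The others with a peak were Blk in both control lists, Rag1 in both male lists, and Pax5 and Cd79b in deleted males, each with 1. The other 10 genes, among them Cd79a, Ms4a1, Vpreb1 and Igll1, which define B cells and their precursors, had 0 in all 4.

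Lists of unequal depth and length hold unequal numbers of weak peaks. The female lists rested on 144613215 tags (control) and 139318421 (deleted), the male lists on 91734730 and 74674218. Each list was therefore ranked by the authors' −log10 q value and cut to its first 88159 peaks for the main comparison. In these equal-length lists the heavy V segments of females had 22 control and 34 deleted peaks, and the log2 ratio of deleted over control was 0.63 (95% exact binomial interval -0.19 to 1.47). Males had 27 and 32, with a ratio of 0.25 (-0.54 to 1.04). For the kappa V segments of females the numbers were 10 and 12, with a ratio of 0.26 (-1.07 to 1.63). For those of males they were 9 and 10, with 0.15 (-1.30 to 1.63). All 4 intervals include 0, so a difference in the number of peaks was not detectable at these counts. With the lists ranked by pileup instead, the heavy segments of females had 18 and 36 peaks, a ratio of 1.00 whose interval excluded 0 (0.15 to 1.90). With a −log10 q minimum of 10 they had 13 and 29, and the ratio after scaling to the length of the lists was 1.51 (0.52 to 2.58). The intervals cover counting error only and take the numbers of the 2 lists as independent.

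The log2 ratios were larger among the stronger peaks, which are a part of the same lists, and this increase was not tested. Among the 44079 strongest of each list, the heavy V segments of females had 8 control and 23 deleted peaks, with a log2 ratio of 1.52 (0.31 to 2.89). Males had 10 and 19, with 0.93 (-0.25 to 2.19). In control males 1 of the 10 peaks was tied with the last of these peaks in −log10 q. Kappa numbers were 2 and 7 for females, with 1.81 (-0.59 to 5.11), and 3 and 4 for males, with 0.42 (-2.15 to 3.19). Of these 4 intervals, that of the heavy segments in females excluded 0. Chromosome 12 as a whole had 1896 and 1911 of these stronger peaks for females and 1927 and 1935 for males. The 1 Mb on either side of the heavy V locus, a stretch chosen after the lists had been seen, held 69 and 68 for females and 75 and 77 for males. Chromosome 6 had 2544 and 2533, and 2550 and 2518. The 1 Mb on either side of the kappa V locus held 45 and 51 for females, with a log2 ratio of 0.18 (-0.43 to 0.79), and 46 and 46 for males. Over these stretches the control and deleted lists had like numbers, apart from the slight lean of the kappa sides in females, whose interval includes 0.

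**Figure D1:**
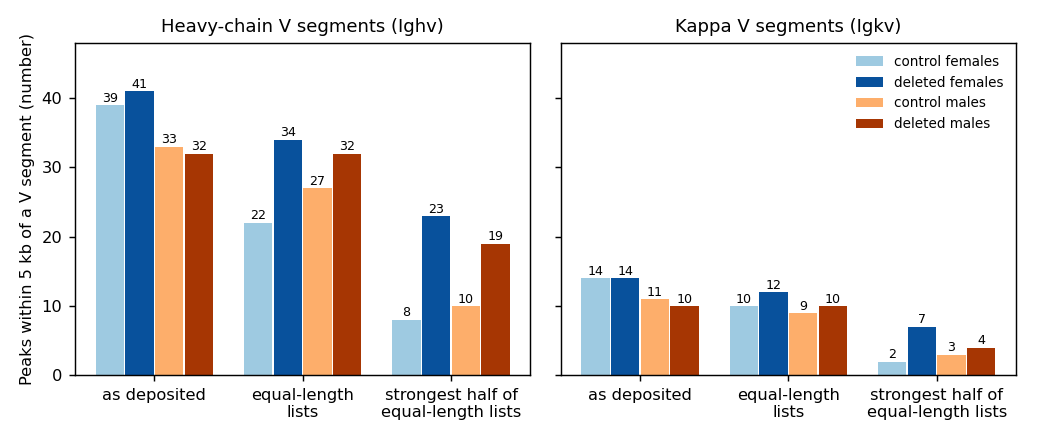
Number of ATAC-seq peaks within 5 kb of a heavy-chain (left) or kappa (right) V segment in the lists as deposited, in the 88159 strongest peaks of each list and in the 44079 strongest. Bars stand for the 4 pooled lists, without error bars since each group has 1 list; the deleted lists exceed the control lists most among the strongest peaks, 23 against 8 and 19 against 10 at the heavy locus.

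Read length and depth differed between the lists and moved with the comparison in part. The tag size of the female lists was 53 bp (control) and 63 bp (deleted), and that of the male lists 62 bp and 59 bp. The longer reads were thus in the deleted list in females and in the control list in males. The equal-length limit fell at a −log10 q of 6.59 (control) and 4.27 (deleted) for females and of 4.52 and 1.39 for males, so the deleted lists reached down to weaker peaks. V segments resemble each other, and reads can be shared between copies. The part of read length, depth and shared reads in the counts was not tested.

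Merging peaks that share at least 1 base pair over the 4 deposited lists gave 62 heavy and 20 kappa regions. Of the heavy regions, 20 had a peak in all 4 lists, 7 in 3, 8 in 2 and 27 in 1. The regions seen once were mostly control peaks, 11 from females and 8 from males, against 5 and 3 deleted ones. The deposited control lists are the longer ones, with 130103 against 104316 peaks in females and 101322 against 88159 in males. The same split over all regions of the genome was not counted, so it is not read as a trait of the locus. Most segments had no peak at all: 122 of 183 heavy and 142 of 162 kappa segments had none within 5 kb in any deposited list. No segment had more than 2 peaks in a list.

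A part of the heavy regions lay in a regular position. In 23 of 62 the summit was between 37 and 97 bp outside the nearest segment, with a median of 56 bp, and in all 23 it was on the side of the D segments. That is the side of the recombination signal sequence. No summit lay at 1 to 100 bp on the other side. Summits inside a segment numbered 9, those farther out but within 1 kb 6, and those beyond 1 kb 24. The 23 regions included 14 of the 20 heavy regions that were in all 4 deposited lists.

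**Figure D2:**
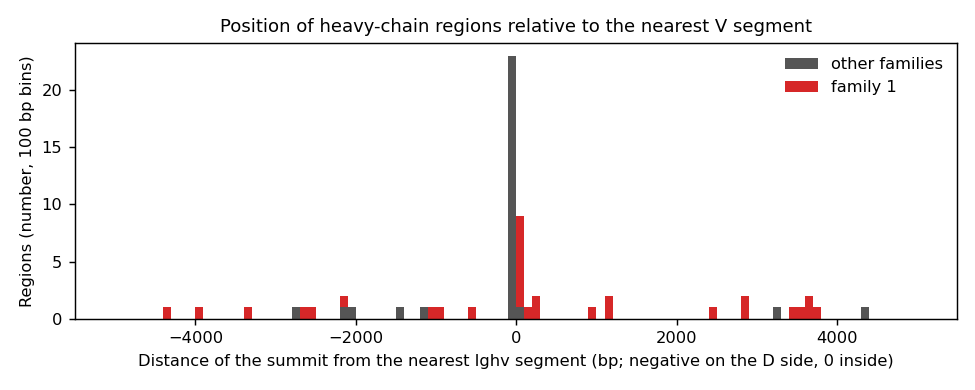
Distance in base pairs from the summit of each of the 62 heavy-chain regions to the nearest Ighv segment, in bins of 100 bp, negative towards the D segments and 0 inside a segment. Grey bars are regions nearest to a segment of families other than 1 and red bars those of family 1; the tallest bar holds the 23 regions just outside a segment on the D side, none of them at family 1.

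These 23 regions belonged to 7 families of heavy V segments, numbered 2, 4, 5, 6, 7, 11 and 12, whose segments lie at the D end of the locus, between positions 113572929 and 114455925. The 7 families have 50 segments, of which RefSeq lists 30 as V segments and 20 as pseudogenes. Of the 23 regions, 21 lay beside V segments and 2 beside pseudogenes, Ighv7-1 and Ighv4-2. Family 1, the largest with 92 segments, lies farther from the D segments, between 114351705 and 116009954, and had 31 regions, none of them in this position. A further 7 families with 25 segments, among them families 3, 9, 10 and 14, had no region. Between the regions of Ighv11-2 and Ighv12-3, over 318 kb and 24 segments, there were 3 regions.

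**Figure D3:**
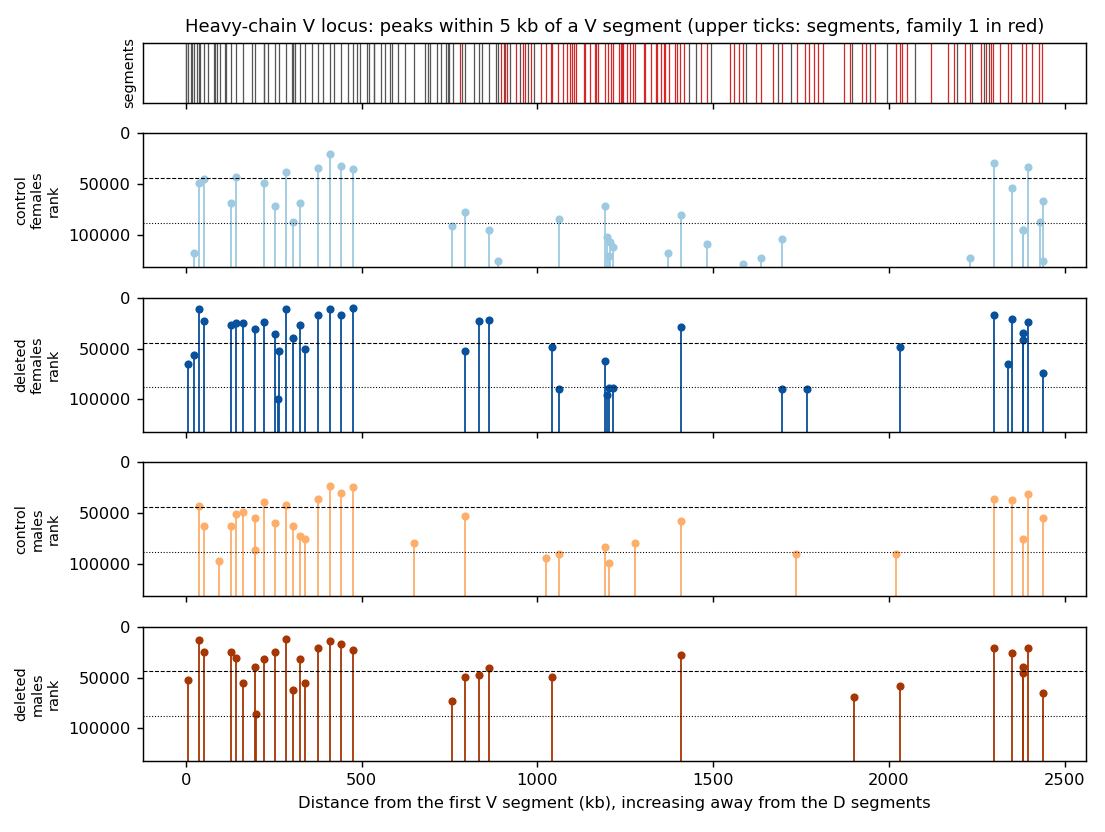
Peaks within 5 kb of a heavy-chain V segment along the locus, in kb from the V segment nearest to the D segments; ticks in the upper panel are the 183 segments, with family 1 in red. Each stem is a region and its height the rank of its peak in that list, with the strongest peaks highest; the dashed and dotted lines mark ranks 44079 and 88159, and the deleted lists hold more stems above the dashed line, 23 and 19 peaks against 8 and 10.

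The peaks just outside segments on the D side ranked higher in the deleted lists. In females 14 of these regions had a peak in both equal-length lists, and the rank was better in deleted cells at 14 of 14. Their median rank moved from 46726 to 23065 between the control and the deleted list. Another 8 had a peak in the deleted list alone and 0 in the control list alone. In males the rank was better in deleted cells at 16 of 17, with medians of 50681 and 24962. There 3 had a peak in the deleted list alone and 1 in the control list alone. Over all regions of the genome in both equal-length lists, the rank was better in the deleted list for 48.1% in females and 50.4% in males. Their median ranks were 36343 (control) and 36777 (deleted) in females and 35267 and 35562 in males. The genome shares are thus not matched to the weaker control ranks of the regions on the D side. In females 72392 regions of the genome were in both equal-length lists, 13231 in the deleted list alone and 14724 in the control list alone. In males these numbers were 69793, 13874 and 15775. The 3 and 1 regions of males are too few to be set apart from these. The 8 and 0 of females were not tested against them either.

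The other heavy regions and the kappa regions leaned the same way in smaller numbers. Of the other 39 heavy regions, 6 were in both lists in females and 6 in males, and 5 of 6 ranked better in deleted cells in each sex. All heavy regions together gave 19 of 20 in females and 21 of 23 in males. Of the kappa regions, 9 of 9 ranked better in deleted females and 5 of 7 in deleted males. Neighbouring segments share windows and similar sequence, so these regions are not independent of each other.

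**Figure D4:**
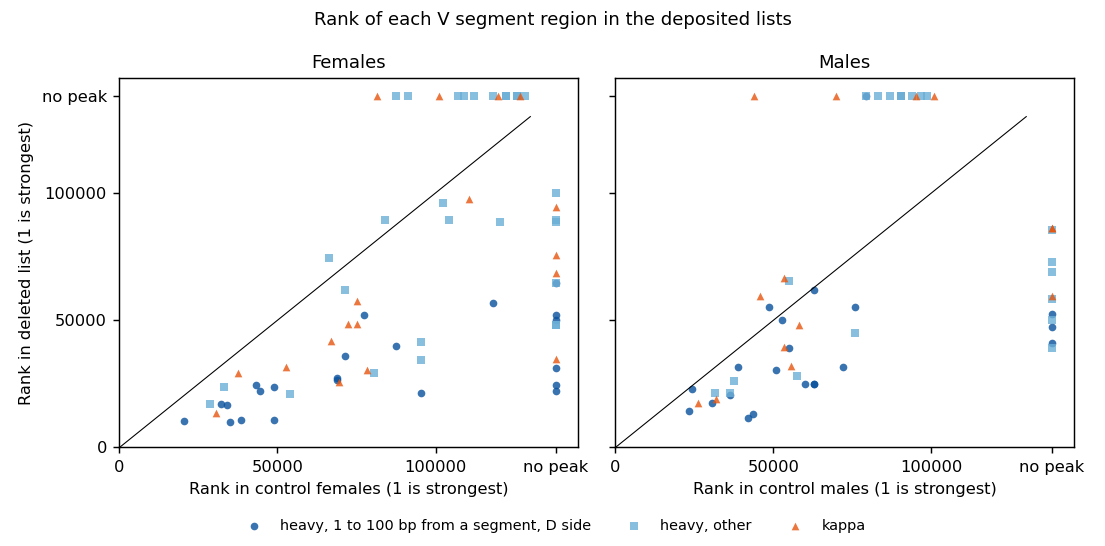
Rank of each heavy or kappa region in the control list (horizontal) and in the deleted list (vertical) as deposited, for females (left) and males (right), where 1 is the strongest peak and points at the edge have no peak in that list; circles are heavy regions within 100 bp of a segment on the D side, squares other heavy regions and triangles kappa regions. Points under the diagonal rank better in deleted cells, as do 19 of 20 heavy regions in females and 21 of 23 in males among those in both equal-length lists.

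The strongest heavy regions are given one by one, with the fold enrichment that the authors' peak caller gave each peak over its local background. These folds rank peaks within a list and are not scaled between lists. Ighv2-3 had a region from 113610989 to 113611650 on chromosome 12 (mm10), 51 bp outside the segment. It ranked 48890 (control) and 10967 (deleted) for females, and 43486 and 13261 for males. Its fold enrichment was 4.21 and 7.23 for females, and 4.91 and 8.87 for males. Both deleted lists thus placed it above both control lists, and in control males its −log10 q was shared by 856 peaks. Ighv5-17, with a region from 113858934 to 113859416, ranked 38298 (control) and 10968 (deleted) for females, and 41883 and 11682 for males. Its folds in the same order were 4.84, 7.23, 5.02 and 9.30, and the last was the highest of any heavy V peak. Families 2 and 5 are the ones nearest to the D segments.

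Ighv11-1, from 113981692 to 113982110, held the strongest heavy V peak of both control lists, with ranks of 20393 in females and 23373 in males. In the deleted lists it ranked 10597 and 14371, and the folds were 6.59 and 7.31 for females and 7.06 and 8.58 for males. Ighv11-2, from 114048066 to 114048306, had the strongest heavy V peak of deleted females, at rank 9843 against 35125 in control females. In males it differed little, with ranks of 24170 in control and 23049 in deleted cells, and its folds were 5.08, 7.47, 6.94 and 6.87. Family 11 has only these 2 segments, and each had a peak in all 4 lists. Ighv4-1, from 113948102 to 113948355, ranked 34110 and 16644 in females and 36262 and 20508 in males. Ighv4-2, from 114012692 to 114013338, is a pseudogene and ranked 32233 and 17227 in females and 30552 and 17505 in males. Family 4 also has only 2 segments, so families 4 and 11 had an open site at each of their segments in control cells already.

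Family 1 had 6 regions with a peak in all 4 deposited lists, of which 5 ranked better in the deleted list of each sex. The exception lay 1107 bp from Ighv1-86, at the far end of the locus, and ranked 66144 and 74371 in females and 55023 and 65271 in males. The region nearest to Ighv1-78, from 115872526 to 115872784, lay 3575 bp from the segment. It ranked 28770 and 17228 in females and 36263 and 21316 in males. The region nearest to Ighv1-83, from 115967586 to 115967846, lay 3615 bp from it and ranked 33156 and 23798 in females and 31584 and 21317 in males. Both lie between segments rather than directly beside one. The other 3 were the regions nearest to Ighv1-46 and Ighv1-81 and the one 208 bp from Ighv1-82. Ighv1-46, Ighv1-81 and Ighv1-86 were named after their values had been seen.

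A peak was called gained if it ranked within 44079 in the deleted list without any overlap with the 88159 strongest of the control list, and lost in the reverse case. The shares given for all candidates cover every rank down to 44079 and were not matched to the ranks of the V segment peaks. The best heavy V peak of deleted females, for one, ranked 9843. At the heavy locus the deleted female list had 6 gained peaks of 23 candidates, a share of 26.1% (10.2 to 48.4), where 1.13% of all candidates were gained. None of 8 was lost, which allows a share of up to 37.5%, and 0.440% of all candidates were lost. In males 2 of 19 were gained, or 10.5% (1.30 to 33.1), where 0.837% of all candidates were gained. None of 10 was lost, which allows up to 30.0%, where 1.09% of all were lost. Counts of 0 out of so few are near the background and say nothing about losses. The intervals of the gained shares cover counting error only and take the peaks as independent, which neighbouring peaks are not. They are no test between the lists.

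The gained heavy regions lay in 2 places, beside segments of the D end and around Ighv1-82. Ighv6-6 was gained in both sexes: its region from 114434604 to 114434841 went from rank 95477 to 21577 in females and from no peak to rank 41095 in males. Its family neighbour Ighv6-4, with a region from 114406299 to 114406524, had no control peak and ranks of 22335 and 47438 in the deleted lists of females and males. The rank in males was beyond 44079, so Ighv6-4 was gained in females only by the rule. Of 7 segments in family 6, these 2 had a region. Ighv5-9-1, from 113735748 to 113736199, had no peak in control females and rank 24641 in deleted females. In males it went the other way, from 48718 to 55335. Ighv2-9-1, from 113769675 to 113769901, had no peak in control females, rank 31149 in deleted females, and 55022 and 39243 in males. For both, the absence from the control female list stood beside a peak in control males.

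Ighv1-82 had the other 2 gained regions. The one from 115955559 to 115955750, 2824 bp from the segment, was gained in both sexes, from rank 95480 to 34516 in females and from no peak to 39244 in males. The one from 115952910 to 115953186, 208 bp from the segment, ranked 95479 and 41399 in females, where it was gained, and 75680 and 45113 in males. Of the 6 gained regions in females, 3 thus had a weak peak in the full control list, at Ighv6-6 and at both Ighv1-82 regions.

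Over the deposited lists, 4 of 62 heavy regions had a peak in both deleted lists and in neither control list, and 0 had the reverse. Among all 150516 merged regions of the genome these shares were 0.984% and 5.59%. The deposited control lists are longer, which favours the reverse case. Beside Ighv6-4, the 4 were Ighv5-2, with ranks of 64796 and 52548 in the deleted lists of females and males, Ighv1-12, with 48126 and 49937, and Ighv1-67, with 48127 and 58445. The last 3 all ranked beyond 44079.

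The kappa V segments were poorer in peaks. In the equal-length lists the female lists had 6.43 (control) and 7.71 (deleted) kappa peaks per Mb of window and the male lists 5.79 and 6.43. The heavy segments had 14.0, 21.6, 17.2 and 20.4 in the same order. The kappa regions lay away from the segments: 15 of 20 summits were over 1 kb from the nearest one, 2 were inside one, and 1 lay within 100 bp. The regular position of a part of the heavy regions thus had no counterpart at the kappa locus. Because kappa segments lie in both orientations and the RefSeq table has no strand, the side of the signal sequence was not assigned there.

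**Figure D5:**
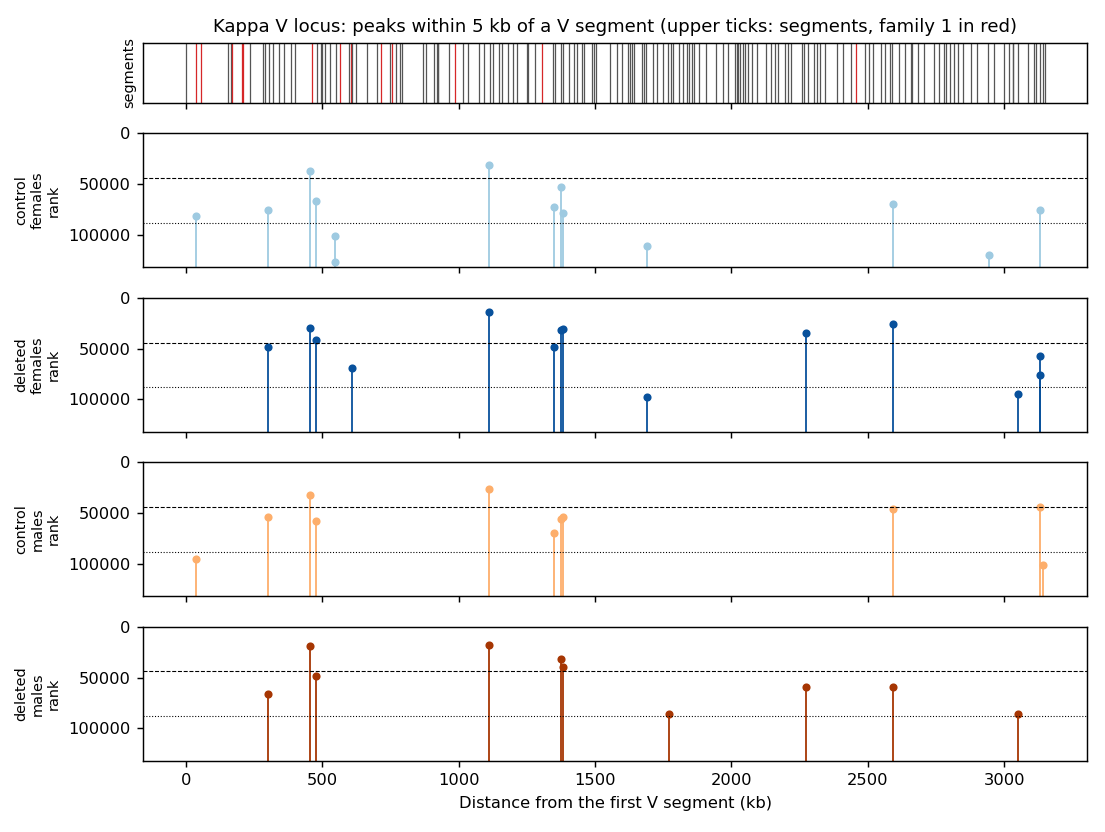
Peaks within 5 kb of a kappa V segment along the locus, in kb from the segment with the lowest coordinate; ticks in the upper panel are the 162 segments, with family 1 in red. Stems, ranks and lines are as in the map of the heavy locus; 7 regions have a peak in all 4 lists.

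Of the 20 kappa regions, 7 had a peak in all 4 equal-length lists. The strongest lay 2070 bp from Igkv2-95-1, from 68668499 to 68668873 on chromosome 6 (mm10), with ranks of 30684 (control) and 13691 (deleted) for females, and 25980 and 17616 for males. Its folds were 5.48, 6.73, 6.70 and 7.87. The region near Igkv1-122, from 68011842 to 68012059, ranked 37517 and 29451 in females and 31864 and 19102 in males. Regions near Igkv13-85 and Igkv13-84 ranked better in deleted cells of both sexes. Igkv13-85, from 68931946 to 68932169, ranked 52667 and 31450 in females and 55719 and 32028 in males. Igkv13-84, from 68938203 to 68938410, ranked 78354 and 30392 in females and 53481 and 39671 in males. Igkv17-121, from 68033715 to 68033897, did so as well, with 66987 and 41815 in females and 58175 and 48129 in males.

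The other regions in all 4 lists differed between the sexes in direction. Igkv8-28, from 70147058 to 70147307, went from rank 69609 to 25686 in females, but from 45644 to 59397 in males. Igkv17-127, from 67858050 to 67858257, ranked 75208 and 48676 in females, but 53480 and 66405 in males. These opposite directions were not tested.

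At the kappa locus 1 of 7 candidate peaks was gained in females, where 1.13% of all candidates were gained, and 1 of 3 was lost in males, where 1.09% of all were lost. None of 2 was lost in females and none of 4 gained in males. The gained region lay 4936 bp from Igkv5-43, from 69828749 to 69828942, with no peak in either control list and ranks of 34858 and 59396 in the deleted lists of females and males. The lost region, 753 bp from Igkv3-3 and from 70686044 to 70686318, had rank 43972 in control males and no peak in deleted males, while females had ranks of 75209 and 57418. Its rank in control males was one of 856 tied at the limit, and with tied peaks left out it was not called. Over the deposited lists, 2 of 20 kappa regions had a peak in both deleted lists alone, where 0.984% of all merged regions did. They were the region of Igkv5-43 and a weak one at Igkv3-7, with ranks of 94392 and 86276. The reverse held for 1 of 20, a weak peak at Igkv1-136 with ranks of 81575 and 95046. Among all merged regions 5.59% had the reverse, so 1 of 20 is near the background.

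The limit of 5 kb cut through a group of kappa peaks but not of heavy ones. Summits between 4 and 5 kb from a kappa segment numbered 1 (control) and 2 (deleted) for females and 1 and 2 for males. Those between 5 and 6 kb numbered 4, 7, 4 and 6. At the heavy locus the summit farthest inside the limit lay between 3689 and 4357 bp in the 4 lists, and the nearest outside lay between 6112 and 7626 bp.

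The D, J and constant genes of the loci had few peaks in the equal-length lists. The 32 D, J and constant genes of the heavy locus and their 5 kb had 1 peak in each equal-length list except deleted males, which had 2. As deposited, the lists had 8 (control) and 6 (deleted) peaks there for females and 3 and 2 for males. The 6 J and constant genes of the kappa locus had 0 in all 4 deposited lists. Few regions lay at other genes: 7 of 62 heavy and 3 of 20 kappa regions lay within 1 kb of a gene that is no immunoglobulin gene, and 5 of the heavy ones at the noncoding gene Gm40899.

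Other gene clusters were counted in the same way to set the V segments beside them. The 130 V segments of the T-cell receptor alpha locus (Trav) had 39 control and 76 deleted peaks in the equal-length lists of females, with a log2 ratio of 0.96 (0.39 to 1.56). Males had 32 and 67, with 1.07 (0.44 to 1.72). Among the 44079 strongest peaks Trav had 8 and 43 for females, with 2.43 (1.32 to 3.73), and 10 and 29 for males, with 1.54 (0.46 to 2.74). Among shared regions 35 of 37 ranked better in deleted females and 24 of 29 in deleted males. The 272 Vmn2r genes, which code for vomeronasal receptors, had 85 and 135 for females, with 0.67 (0.27 to 1.08), and 104 and 120 for males, with 0.21 (-0.18 to 0.60). Among the 44079 strongest they had 39 and 50 for females, with 0.36 (-0.27 to 1.00), and 43 and 47 for males, with 0.13 (-0.50 to 0.76). Of shared regions, 58 of 73 ranked better in deleted females and 47 of 75 in deleted males. The 1428 olfactory receptor genes and pseudogenes (Olfr) had 111 and 135 for females, with 0.28 (-0.09 to 0.66), and 103 and 116 for males, with 0.17 (-0.22 to 0.57). Among the 44079 strongest they had 32 and 51 for females, with 0.67 (0.01 to 1.36), and 30 and 45 for males, with 0.58 (-0.11 to 1.30). Of shared regions, 59 of 86 and 50 of 72 ranked better in deleted cells. The heavy V ratios lay below those of Trav in both sexes and in both cuts of the lists, and no difference between the gene groups was tested.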

How the data were processed

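The submitters' processing notes name the build mm10, Bowtie2 2.2.5, Trim Galore 0.4.0, MACS2, Picard, SAMtools, edgeR and bcl2fastq, with no role given. Peaks came from MACS 2.1.0.20140616, run once per group without a control and with reads shifted by 75 bp, extended to 150 bp and kept at q up to 0.05, per the file headers. The authors deposited with each peak its pileup (a signal height), its fold enrichment (a ratio over local background) and its −log10 q; the −log10 p was not used. Libraries were pooled before calling, read from the single alignment named per list.

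Peaks of the autosomes, X and Y were ranked by −log10 q, with ties ordered by position. Gene positions came from RefSeq GRCm38.p6, the sequence build of mm10. Ratios carry 95% exact binomial intervals. The 3-count limit on a count of 0 covers counting error only. The calls were tested on simulated data, made by removing peaks from copies of the control female list. This checks that the rule finds removed peaks and does not measure the error of calls between the real lists. Named regions are those called, up to 8 per locus in all 4 equal-length lists, up to 6 seen in both lists of 1 genotype alone, and the 6 of highest fold. Members, lists and rules were chosen with earlier results of these data known. The position of summits relative to segments was examined after the regions had been seen. The RefSeq promoter table used here has 0 windows for V segments, so the planned motif search could not be run on V segments and no sequence is shown. Computation used scipy 1.17.1, pandas 2.3.3 and numpy 2.4.6 under Python 3.11.15, and plots matplotlib 3.10.9.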

Additional observations from a re-analysis of the deposited data

How the results depend on the processing

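No paired analysis was possible because each group has 1 pooled list, and for the same reason no library could be left out. Of 37 ratios of peak numbers under the alternatives, 35 were above 0, 1 was 0.00 (heavy, females, flank of 0 kb) and 1 was -0.54 (kappa, males, −log10 q minimum of 10). With a flank of 0 kb the other 3 ratios could not be computed, since a list had 0 peaks: heavy segments had 3 control and 0 deleted peaks in males, and kappa segments 0 and 1 in females and 0 and 0 in males. Ratios of the deposited lists and of those with a −log10 q minimum are scaled to the length of the lists. In females the heavy ratio was 1.00 (0.15 to 1.90) when ranked by pileup, 1.51 (0.52 to 2.58) with a −log10 q minimum of 10 and 1.52 (0.31 to 2.89) among the 44079 strongest peaks, and these 3 intervals excluded 0. The kappa ratio among the 44079 strongest was 1.81. In males the heavy ratios were 0.09 to 0.93.

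Gained and lost peaks were few, and most settings that moved them changed which peaks may be called. With a flank of 0 kb, gained heavy peaks were 0 in females and 0 in males, and gained kappa peaks in females and lost kappa peaks in males were 0. With no margin, gained heavy peaks were 14 in females and 9 in males and lost ones 2 and 4, while gained kappa peaks were 3 in females and 3 in males and lost ones 1 and 2. The share of all peaks called without the margin was not counted. These numbers therefore cannot be set against the shares given above, which hold for the rule with the margin. With a flank of 10 kb, gained kappa peaks were 2 in females and 2 in males. Ranked by pileup, gained heavy peaks in males and lost kappa peaks in males were 0. With peaks tied at the limits left out, an alternative chosen after seeing the data, lost kappa peaks in males were 0. The cause of these moves was not tested beyond the tie. The male lists have the lower depth, and what that did to the calls was not tested.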

Other observations

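Between the V segments, outside the 5 kb windows, the equal-length lists also held more peaks in deleted cells at both loci. At the heavy locus, where the windows cover 64.2% of the span, these stretches had 1 control and 7 deleted peaks in the female lists, with a log2 ratio of 2.81 (-0.15 to 8.30). The male lists had 5 and 11, with 1.14 (-0.50 to 3.01). At the kappa locus, where they cover 49.2%, the numbers were 9 and 18 for females, with 1.00 (-0.23 to 2.34), and 12 and 17 for males, with 0.50 (-0.65 to 1.70). As deposited, the heavy stretches had 12 and 11 peaks for females and 6 and 11 for males, and the kappa stretches 29 and 22 for females and 20 and 17 for males. The direction of the counts thus depends on the length of the lists at the heavy locus in females and at the kappa locus in both sexes. All the intervals given include 0.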
